A study of Canis lupus familiaris with 222 samples.

Results

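Among 222 RNA-seq libraries of canine mammary tissue, 5 tumors formed the cluster called NMF5, and all of them were benign. They came from the dogs CMT-215, CMT-232, CMT-456, CMT-476 and CMT-480. The clusters were obtained by the authors with non-negative matrix factorization, a method that groups samples by shared patterns of expression, applied to the tumors together with the adjacent normal tissues, and each tumor was then placed in a cluster by its levels of these patterns. The paper reports the NMF4 and NMF5 patterns as specific to normal tissue and the NMF1 pattern as relatively specific to tumors. The 5 tumors were compared with the 20 benign tumors in NMF1, the largest cluster, with 92 tumors. Beside both were placed 64 adjacent normal mammary tissues. Of these normal tissues, 2 came from NMF5 dogs, 7 from the benign NMF1 dogs and 55 from other dogs. Those 55 dogs had benign or malignant tumors, were intact or neutered, and covered more breeds and a wider range of ages. Cluster and benign or malignant status were taken from the supplementary clinical table of the study. By the sample labels, 26 NMF1 tumors are benign, of which 6 are malignant in that table and were left out. All animals were female dogs operated on for mammary tumors, no treatment is named for them, and each tumor or normal tissue gave 1 bulk library. The NMF5 dogs were 2 Poodles, 2 Maltese and 1 Shih Tzu, 4 of them intact and 1 neutered, and 7 to 15 years old where an age is given (4 of 5). The benign NMF1 dogs were 9 Maltese, 4 of mixed breed, 2 Dachshunds, 2 Shih Tzu and 3 of other breeds, 18 intact and 2 neutered, and 7 to 16 years old (19 of 20 with an age). Simple adenomas made up 3 of the 5 NMF5 tumors and 9 of the 20 NMF1 tumors, complex adenomas 1 and 8, and benign mixed tumors 1 and 3. CMT-476 and CMT-480 were the 2 Maltese dogs and were operated on at 1 date.

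The canine mammary gland holds a luminal epithelial layer, which can secrete milk, and a myoepithelial layer around it. A simple adenoma is a benign growth of 1 of these epithelial types, a complex adenoma holds both, and a benign mixed tumor also holds cartilage or bone. In bulk tissue the level of a transcript depends on how many cells of each kind are present as well as on the RNA in each cell, and these cannot be told apart here. The expression table names genes only by Ensembl identifiers, which could not be paired with gene symbols here, so pathways and cell type markers were not analysed and at most 2 identifiers in each direction are named for a comparison.

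Levels are given as FPKM, sequenced fragments scaled to transcript length and to the mapped fragments of the library, and differences are on the log2(FPKM + 1) scale, which understates changes of weakly expressed genes. The NMF5 libraries held 60522827 to 91889380 mapped reads and the benign NMF1 libraries 60783228 to 95726198, as listed in the supplementary sequencing table. Read numbers per gene are unknown. Between 11526 and 12882 identifiers reached 1 FPKM in the NMF5 tumors, against 12145 to 13281 in benign NMF1. The lowest of these numbers belonged to CMT-476, in which the median difference from the benign NMF1 mean over all tested identifiers was also the lowest of the 5 at -0.37. In the other NMF5 tumors that median lay between -0.20 and -0.03.

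A small set of genes was higher in the NMF5 tumors, some of them by very large factors. Called were identifiers with a limma p under 0.05 after Benjamini-Hochberg adjustment over the 14381 tested and a difference of 1 or more on the log2 scale. Of these, 65 identifiers were higher in NMF5 (0.452% of those tested) and 34 were lower (0.236%). The median difference was 1.61 among the 65 (1.01 to 9.26) and -1.29 among the 34 (-4.53 to -1.003), against -0.17 over all identifiers tested. Of the 65, 23 differed by at least 2 and 6 by at least 4 on the log2 scale, whereas among the 34 these numbers were 2 and 1. After quantile normalization, which moved the median of all identifiers to -0.01, 105 were higher and 12 lower, so the number of lower calls depended on the scaling. The clusters were made from these same expression values. The calls and p-values therefore describe how NMF5 differs from NMF1 and are no independent evidence that it does. The same holds for every comparison with normal tissue, which entered the factorization too.

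The higher genes were not all weak transcripts. Mean levels in NMF5 were at least 100 FPKM for 15 of the 65, between 10 and 100 for 31 and under 10 for 19. In benign NMF1, 14 of the 65 had a median under 1 FPKM, and 9 of these 14 were at 1 FPKM or more in every NMF5 tumor. The 34 lower identifiers were mostly of moderate level, with a mean in benign NMF1 of at least 100 FPKM for 5, between 10 and 100 for 23 and under 10 for 6. Groups without any overlap were rare among all tested identifiers: in 24 (0.167%) all 5 NMF5 tumors lay above all benign NMF1 tumors, and in 10 (0.0695%) all 5 lay below. Of the called identifiers, 22 of the 65 and 2 of the 34 were of this kind.

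**Figure D1:**
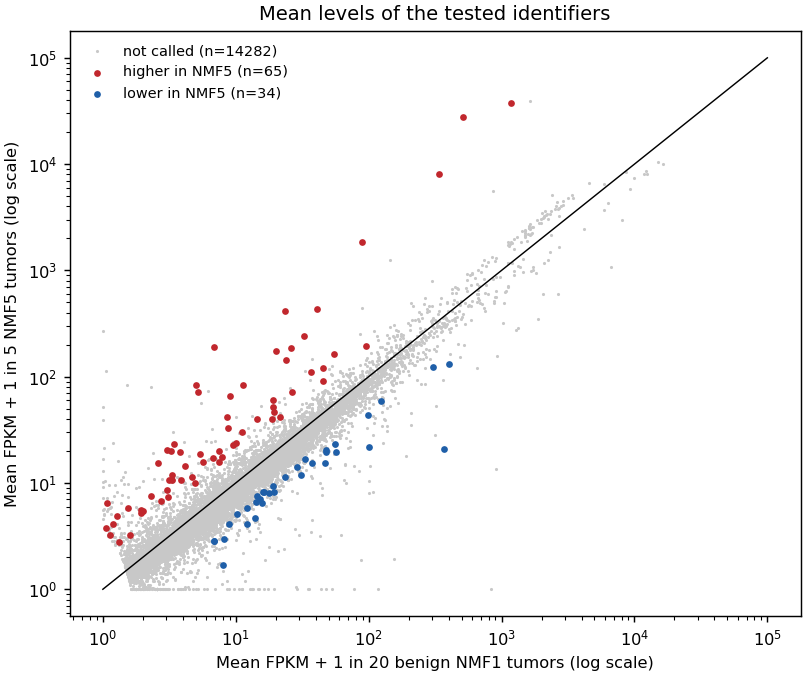
Mean FPKM + 1 of each tested identifier in the 20 benign NMF1 tumors (x axis, log scale) and in the 5 NMF5 tumors (y axis, log scale), with the line of equal levels. The 65 identifiers called higher in NMF5 (red) include 2 with means of 27800 and 37732 FPKM, while the 34 called lower (blue) stay nearer to the line.

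The identifier with the largest increase, ENSCAFG00000002889, was at 23331 FPKM in CMT-215, 35892 in CMT-232, 20132 in CMT-456, 49940 in CMT-476 and 9704 in CMT-480. In the 20 benign NMF1 tumors it ran from 0 to 3582 FPKM with a median of 36.3. The groups did not overlap. The log2 difference was 9.26 (SE 1.77, n = 5 and 20, limma adjusted p = 0.00607). Within benign NMF1 the level was itself very uneven, with 4 tumors over 1000 FPKM. Ranked by FPKM among all identifiers of a library, it stood at 1 in CMT-215, 3 in CMT-232 and CMT-456, 2 in CMT-476 and 10 in CMT-480.

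ENSCAFG00000019755 behaved alike, with 17563 FPKM in CMT-215, 48148 in CMT-232, 32049 in CMT-456, 58687 in CMT-476 and 32216 in CMT-480. Its levels in benign NMF1 ran from 1.77 to 6334 FPKM with a median of 128, below every NMF5 tumor. The log2 difference was 8.10 (SE 1.63, n = 5 and 20, limma adjusted p = 0.0087). Its rank was 1 in CMT-476, 3 in CMT-215 and 2 in the other 3 NMF5 tumors.

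These 2 identifiers made up a large part of the summed FPKM in the NMF5 tumors. They accounted for 6.55% of the summed FPKM in CMT-215, 12.3% in CMT-232, 7.52% in CMT-456, 14.2% in CMT-476 and 5.80% in CMT-480. In benign NMF1 the share was at most 1.42%, with a median of 0.0304%. FPKM is scaled to the mapped fragments of a library, so a gene of unchanged abundance is listed lower where a few transcripts take many of them. With each library rescaled on all but the 50 most abundant identifiers, a setting chosen after seeing the data, 64 identifiers were higher and 20 lower.

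High levels of the 2 identifiers set NMF5 apart from the other clusters as well. None of the other 152 clustered tumors reached the lowest NMF5 level of either. Over those tumors ENSCAFG00000002889 reached 7158 FPKM with a median of 3.54, and 14 tumors were over 1000 FPKM. ENSCAFG00000019755 reached 11877 FPKM with a median of 19.3, and 26 tumors were over 1000 FPKM. Medians of ENSCAFG00000002889 were 4.08 FPKM in the 72 malignant NMF1 tumors, 0.913 in the 35 NMF2 tumors, 2.84 in the 18 NMF3 tumors and 16.6 in the 7 NMF4 tumors. These levels are descriptions, because they entered the clustering.

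**Figure D2:**
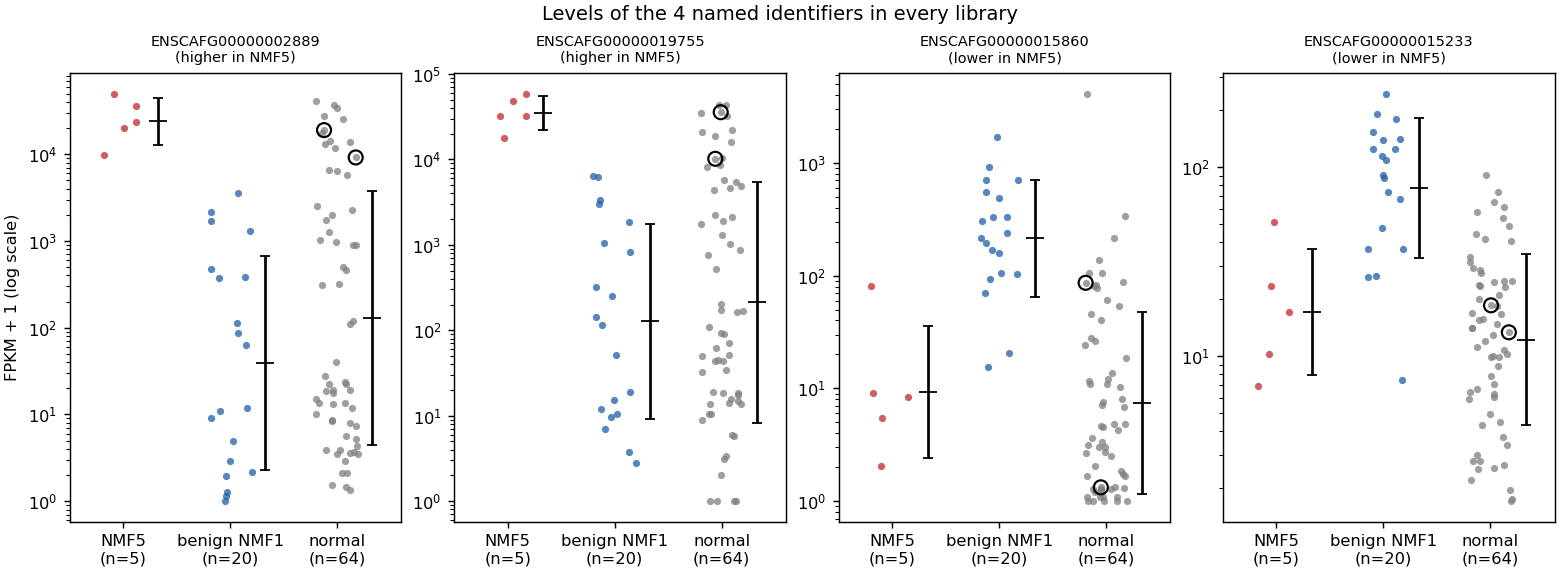
FPKM + 1 (log scale) of the 4 named identifiers in each of the 5 NMF5 tumors, 20 benign NMF1 tumors and 64 normal tissues, with the mean and SD of log2(FPKM + 1) as a bar and the normal tissues of NMF5 dogs circled. For the 2 higher identifiers (left panels) all 5 NMF5 tumors lie above all 20 benign NMF1 tumors, and the normal tissues span both ranges.

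In the other direction, ENSCAFG00000015860 was at 4.42 FPKM in CMT-215, 8.04 in CMT-232, 79.6 in CMT-456, 1.06 in CMT-476 and 7.32 in CMT-480. Benign NMF1 tumors ran from 14.3 to 1698 FPKM with a median of 226, and only 3 of the 20 lay at or below the highest NMF5 tumor, CMT-456. The log2 difference was -4.53 (SE 0.83, n = 5 and 20, limma adjusted p = 0.0044). The 64 normal tissues had a median of 3.60 FPKM, in the range of the NMF5 tumors.

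ENSCAFG00000015233 was at 16.1 FPKM in CMT-215, 9.28 in CMT-232, 50.5 in CMT-456, 5.89 in CMT-476 and 22.4 in CMT-480. Benign NMF1 ran from 6.50 to 244 FPKM with a median of 98.5, and 6 of the 20 tumors overlapped with NMF5. The log2 difference was -2.18 (SE 0.58, n = 5 and 20, limma adjusted p = 0.0417). This call was lost in 20 of 39 alternative settings, in which the adjusted p ran from 0.00795 to 0.464 over all 39, while the direction held in each. The median in normal tissue was 12.7 FPKM.

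The 5 tumors did not carry the pattern to the same degree. Over the 65 higher identifiers the median difference from the benign NMF1 mean was 1.95 in CMT-215, 1.80 in CMT-232, 1.27 in CMT-456, 2.19 in CMT-476 and 1.37 in CMT-480. Over the 34 lower ones it was -1.08, -1.26, -0.58, -2.40 and -0.95 in the same order. By these medians CMT-476 was the most extreme on both lists. It lay below all benign NMF1 tumors in all 34 lower identifiers. It lay above all of them in 51 of the 65 higher ones, and CMT-215 did so in 52. Over all tested identifiers CMT-476 lay outside benign NMF1 more often than any other NMF5 tumor, below in 25.5% and above in 5.81%. CMT-456 was the mildest on both, with 35 of 65 above and 7 of 34 below all benign NMF1 tumors, against 0.953% above and 3.22% below over all tested identifiers. The calls depended on these tumors: without CMT-476 there were 42 higher and 1 lower, and without CMT-456 there were 104 of each. Without both tumors of the shared operation date, a setting chosen after seeing the data, 23 were higher and 0 lower, and the adjusted p of ENSCAFG00000002889 was 0.0992 at a log2 difference of 9.35. Leaving out CMT-017, the benign NMF1 tumor least like the others, gave 79 higher and 73 lower.

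Histology was not balanced between the groups. With histology as a covariate 69 identifiers were higher and 26 lower. Among simple adenomas alone (3 NMF5 and 9 NMF1 tumors) limma called 0, with log2 differences of 8.84 for ENSCAFG00000002889 and 8.19 for ENSCAFG00000019755, both at an adjusted p of 0.331. All 5 NMF5 tumors were operated on in 2017. Against the 13 benign NMF1 tumors of that year, 58 identifiers were higher and 30 lower.

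The normal tissues gave different pictures for the 2 directions. Over the 34 lower identifiers they resembled NMF5: the normal mean lay nearer to the NMF5 mean than to the NMF1 mean for 28 of 34, compared with 61.98% of all identifiers tested, and the median over the list was below the benign NMF1 mean in all 64 normal tissues. In 58 of the 64 that median was at or below the highest NMF5 tumor. Over the 65 higher identifiers the normal mean lay nearer to NMF5 for only 15. The normal median over this list ran from -0.81 to 2.56, and 12 of the 64 normal tissues reached the lowest NMF5 tumor. The same 12 were also within or beyond the NMF5 range on the lower list. These positions share the tumors that chose the lists, so they place the normal tissues and test nothing.

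**Figure D3:**
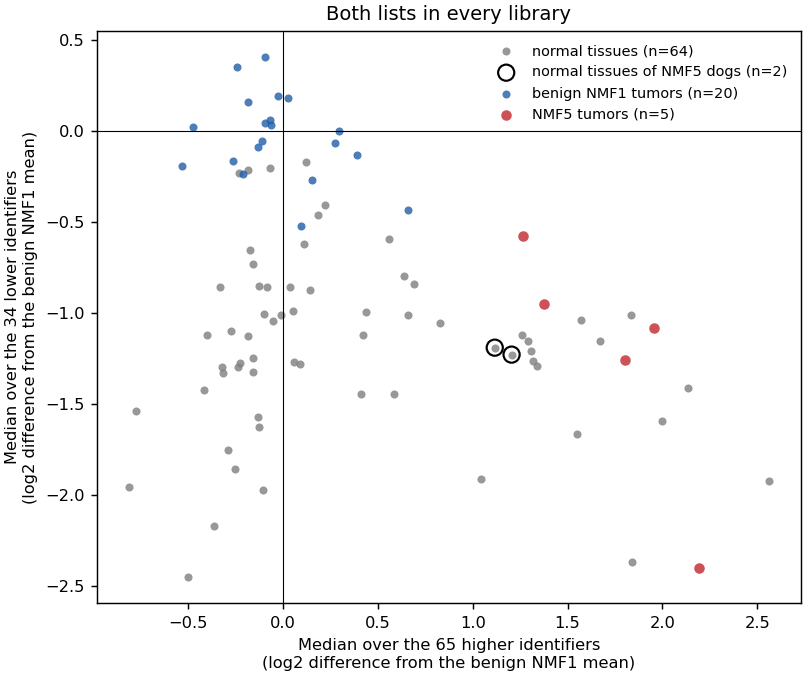
Median log2 difference from the benign NMF1 mean over the 65 higher identifiers (x axis) and the 34 lower identifiers (y axis) in each of the 5 NMF5 tumors, 20 benign NMF1 tumors and 64 normal tissues, with the normal tissues of the 2 NMF5 dogs circled. All normal tissues lie below 0 on the y axis, and 12 of them reach the NMF5 tumors on both axes.

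Levels of the 2 most increased identifiers varied among the normal tissues as widely as between the clusters. ENSCAFG00000002889 ran from 0.341 to 40978 FPKM with a median of 24.6, and 11 of the 64 reached the lowest NMF5 tumor. ENSCAFG00000019755 ran from 0 to 43795 FPKM with a median of 99.7, and 8 reached the lowest NMF5 tumor. Both were over 1000 FPKM in 17 normal tissues, 1 of them in 11 and neither in 36. In 4 normal tissues ENSCAFG00000019755 was listed at 0 while ENSCAFG00000002889 was at 5805 to 37411 FPKM. Such a 0 may be a failed estimate, so means of ENSCAFG00000019755 over normal tissues are uncertain.

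Against all 64 normal tissues, limma called 2 identifiers higher in NMF5 (0.0139%) and 0 lower (0%), while 1800 of 14381 had an unadjusted p under 0.05. In NMF5, ENSCAFG00000018646 was a weak transcript and ENSCAFG00000015930 one of moderate level. Since they lie outside the rule for named identifiers, both were chosen after their values were seen. ENSCAFG00000015930 was at 3.18 to 20.4 FPKM in NMF5 (median 12.6), with medians of 0.293 in benign NMF1 and 0.0858 in normal tissue. Its log2 difference from normal tissue was 2.80 (SE 0.45, adjusted p = 0.000259). ENSCAFG00000018646 was at 1.09 to 4.77 FPKM in NMF5 (median 1.49), with medians of 0.079 in benign NMF1 and 0.0546 in normal tissue, and differed from normal tissue by 1.23 (SE 0.24, adjusted p = 0.0125). Single normal tissues reached 16.9 and 3.97 FPKM, so neither identifier was confined to NMF5. The highest benign NMF1 tumor was at 36.3 FPKM for ENSCAFG00000015930, above every NMF5 tumor. For ENSCAFG00000018646 it was at 0.831 FPKM, below every NMF5 tumor. They were also higher in NMF5 than in benign NMF1, by 2.52 (SE 0.55, adjusted p = 0.0161) and 1.42 (SE 0.16, adjusted p = 1.2e-05).

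Without the 4 normal tissues that list ENSCAFG00000019755 at 0, a setting chosen after seeing the data, 44 identifiers were higher and 30 lower in NMF5 than in normal tissue. Those 4 tissues also had high levels of ENSCAFG00000002889, so leaving them out removes normal tissues that resembled NMF5. The count against normal tissue thus changed when these 4 libraries were left out. Leaving out other normal tissues was not tested. In the fit with all 64 normal tissues the 20 benign NMF1 tumors differed from normal tissue in 506 higher (3.52%) and 472 lower identifiers (3.28%). The groups differ in size and share the normal tissues, so the 2 sets of counts do not show that NMF5 was closer to normal tissue.

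Values of the named identifiers in the fit with all 64 were as follows. ENSCAFG00000002889 differed from normal tissue by 7.54 on the log2 scale in NMF5 (SE 2.095, adjusted p = 0.15) and by -1.73 in benign NMF1 (SE 1.16, adjusted p = 0.21), and neither passed the test. ENSCAFG00000019755 differed by 7.36 (SE 2.00, adjusted p = 0.15) and -0.74 (SE 1.10, adjusted p = 0.593). The lower identifiers showed the reverse arrangement. ENSCAFG00000015860 differed from normal tissue by 0.31 in NMF5 (SE 1.12, adjusted p = 0.941) and by 4.85 in benign NMF1 (SE 0.62, adjusted p = 2.4e-09). ENSCAFG00000015233 differed by 0.49 (SE 0.65, adjusted p = 0.811) and 2.67 (SE 0.36, adjusted p = 1e-08). For both, benign NMF1 was higher than normal tissue and a difference of NMF5 from normal tissue was not detected with 5 tumors.

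Normal tissue from the same dogs did not define the 2 groups of tumors, but it entered the factorization from which the clusters came, so it is no independent measure. It was sequenced for 2 NMF5 dogs, CMT-232 and CMT-480, and for 7 benign NMF1 dogs. ENSCAFG00000002889 was at 9186 FPKM in the normal tissue of CMT-232 and 18961 in that of CMT-480, against 2.71 to 37411 with a median of 18.4 in the 7 others. ENSCAFG00000019755 was at 10146 and 35589 FPKM, against 0 to 1024 with a median of 17.9. For ENSCAFG00000002889, 6 of the 7 lay far below both NMF5 dogs, and the exception at 37411 FPKM was CMT-103, whose normal tissue listed ENSCAFG00000019755 at 0.

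Differences between the normal tissues of the 2 sets of dogs did not pass the test, in the direction seen in the tumors, for any called identifier tested there. Over 14451 identifiers limma called 12 higher in the NMF5 dogs (0.083%) and 0 lower (0%), with 710 at an unadjusted p under 0.05. None of the 12 was among the 65 higher identifiers. With only identifiers of a mean of at least 5 FPKM in the fit, 0 were called. The log2 difference was 7.77 for ENSCAFG00000002889 (SE 2.86, adjusted p = 0.873) and 9.33 for ENSCAFG00000019755 (SE 1.96, adjusted p = 0.369). Without the normal tissue of CMT-103 these were 9.32 (SE 1.37, adjusted p = 0.0866) and 8.52 (SE 1.54, adjusted p = 0.164), in a setting chosen after seeing the data. Of the 65 higher identifiers, 63 could be tested, and 52 of these were higher in the normal tissue of the NMF5 dogs, compared with 35.6% of all identifiers. Of the 34 lower ones, 21 were lower there, compared with 64.4% of all. With 2 dogs on 1 side these counts are a description.

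The 65 higher identifiers took 3.98% of the summed FPKM in the normal tissue of CMT-232 and 9.02% in that of CMT-480. In the normal tissue of the benign NMF1 dogs the share was 8.05% in CMT-103 and 0.0967% to 0.713% in the other 6. In tumors the share was 7.13% to 15.6% in NMF5 and at most 1.81% in benign NMF1. In each NMF5 tumor most of it came from ENSCAFG00000002889 and ENSCAFG00000019755, which together took 5.80% to 14.2%.

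Tumor and normal tissue of a dog could be set side by side in these 9 dogs. In CMT-232 the tumor was higher than its own normal tissue by 1.97 for ENSCAFG00000002889 and 2.25 for ENSCAFG00000019755. In CMT-480 it was lower, by -0.97 and -0.14. The normal tissue of both dogs had at least 9186 FPKM of each. Over the 65 higher identifiers the median of tumor minus normal was 0.71 in CMT-232, where 58 were higher in the tumor (89.2%, against 32.2% of all tested identifiers), and 0.23 in CMT-480, where 47 were (72.3%, against 65.7%). In CMT-480 the share was thus near that of all identifiers. In the 7 benign NMF1 dogs this median ran from -1.87 in CMT-103 to 0.38 in CMT-719. Over the 34 lower identifiers it was -0.15 and 0.18 in the NMF5 dogs and between 0.12 and 1.45 in the benign NMF1 dogs. Of the 34, 29 to 34 were higher in the tumor in 5 of the 7 NMF1 dogs, in which 46.4% to 71.3% of all identifiers were. The other 2 were CMT-162, with 25 (73.5%, against 28.2% of all), and CMT-017, with 20 (58.8%, against 55.4%, near the share of all). Both lists were chosen from these same tumors, so a lean of the listed identifiers was partly built in. The counts are a description and test nothing.

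**Figure D4:**
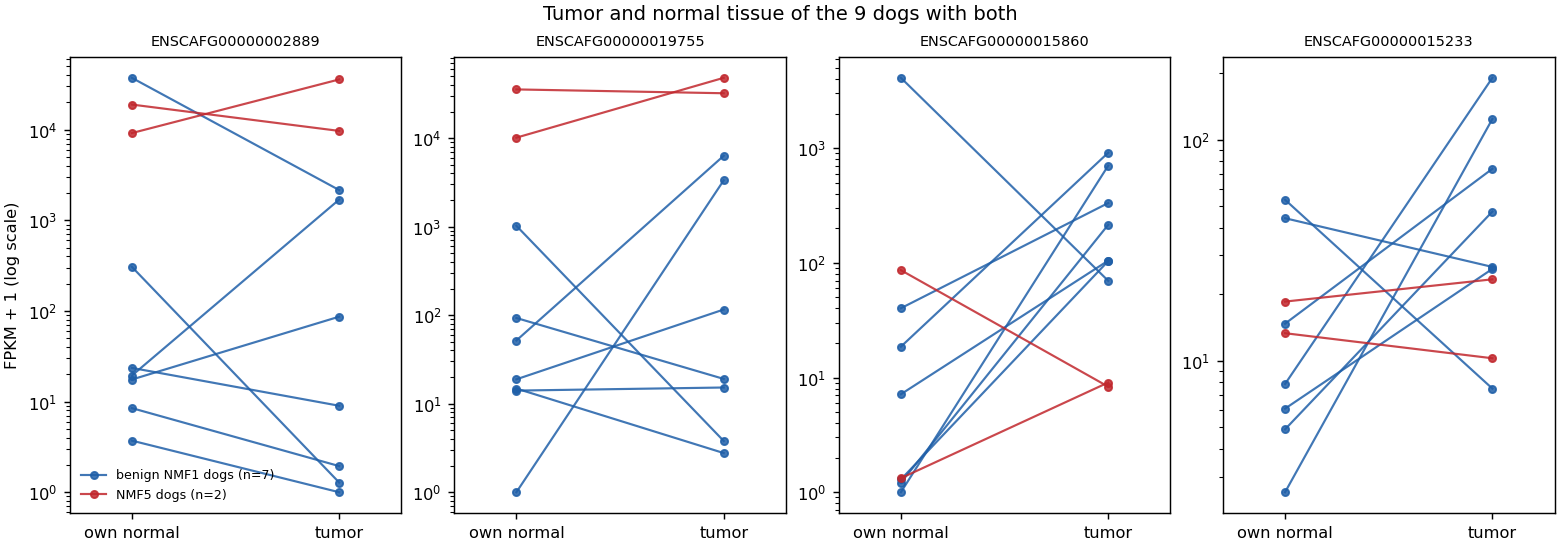
FPKM + 1 (log scale) of the 4 named identifiers in the normal tissue and the tumor of the 2 NMF5 dogs (red) and 7 benign NMF1 dogs (blue) with both. For the 2 left identifiers both red lines stay at 9186 FPKM or more in normal tissue and tumor, and for ENSCAFG00000015860 the tumor is higher than the normal tissue in 6 of the 7 blue lines.

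On average over the libraries of other dogs, the whole profile of the NMF5 tumors was not closer to normal tissue than to benign NMF1. Their correlation with other libraries over all tested identifiers (Pearson, on log2(FPKM + 1), same dog left out) averaged 0.913 ± 0.0135 (SD, n = 5) with the other NMF5 tumors, 0.893 ± 0.0244 with benign NMF1 and 0.862 ± 0.0197 with normal tissue. CMT-480 was the exception, at 0.888 with normal tissue and 0.878 with benign NMF1. In the 20 benign NMF1 tumors the mean with normal tissue was 0.839 ± 0.0203, below that with benign NMF1 in all 20. CMT-456 was slightly more like benign NMF1 (0.923) than like the other NMF5 tumors (0.921). The single most similar library from another dog was a normal tissue for 3 of the 5 NMF5 tumors and for 4 of the 20 benign NMF1 tumors. Most libraries to choose from were normal tissues (64, beside 20 benign NMF1 and 5 NMF5 tumors). The 3 of 5 thus shows no particular likeness to normal tissue. With their own normal tissue, left out above, CMT-232 correlated at 0.964 and CMT-480 at 0.967. No library of another dog was as similar (at most 0.957 and 0.946). Own normal tissue gave 0.795 to 0.916 in the benign NMF1 dogs, and only in CMT-017 did it exceed every other dog (0.860 against 0.852). These correlations share libraries and the genes that formed the clusters, and they carry no test.

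**Figure D5:**
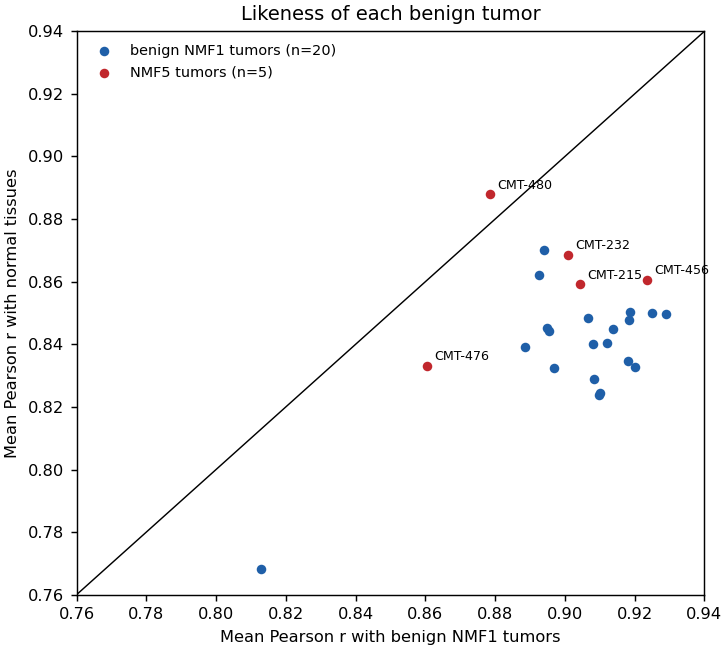
Mean Pearson correlation of each benign tumor with the benign NMF1 tumors (x axis) and with the normal tissues (y axis), and the line of equal correlation. Of the 5 NMF5 tumors (red), CMT-480 alone lies above the line, and all 20 benign NMF1 tumors (blue) lie below it.

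NMF4, a small cluster of 7 tumors of which 6 were malignant, was compared with the 72 malignant NMF1 tumors, which share no sample with the comparison above, although all clusters came from 1 factorization. Of the 34 lower identifiers, 28 were lower in NMF4 as well, with a median difference of -1.14. Of the 65 higher ones, 38 were higher in NMF4, with a median of 0.20, and of all identifiers tested 36.4% were higher with a median of -0.15. No test was made of these counts. In the paper the NMF4 and NMF5 patterns were both tied to normal tissue. A likeness of these clusters is therefore no independent support.

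Clinical and technical measures that the clustering did not use were compared between the 5 NMF5 and the 20 benign NMF1 dogs in 10 exact tests, all two-sided. The ER Allred score, which grades staining for the estrogen receptor, averaged 6.2 ± 2.68 (SD, n = 5) in NMF5 and 6.2 ± 2.28 (SD, n = 20) in benign NMF1. The HER2 score averaged 1.8 ± 0.837 and 1.7 ± 0.865. Age was 11.2 ± 3.30 years (n = 4) and 10.8 ± 2.36 years (n = 19). Maltese dogs were 2 of 5 and 9 of 20, and intact females were 4 of 5 and 18 of 20. The mapping rate was 90.8 ± 1.40% and 91.3 ± 0.922%. The smallest unadjusted p of the 10 was that for surgery in 2017 (5 of 5 against 13 of 20, Fisher's exact p = 0.274), and the adjusted p was 1 for each of the 10. With 5 dogs, only large differences in these measures were detectable.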

How the data were processed

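Per the labels and the study's methods, the authors mapped reads to CanFam3.1 with TopHat 2.0.9 and Ensembl annotation and calculated FPKM with Cufflinks 2.1.1. The deposited table holds FPKM for 24580 identifiers in 222 libraries, 3857 of them at 0 in every library, with no stated scaling between libraries. Tumor or normal tissue and histology came from the labels, and cluster and benign status from the study's clinical table. The members and lists were chosen with earlier results of these data known.

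Identifiers with a mean of at least 0.5 FPKM over the 25 benign tumors were fitted as log2(FPKM + 1) with limma 3.58.1 (trend, R 4.3.3), without covariates. NMF5, benign NMF1 and normal tissue shared a second fit. Own normal tissues had a fit of their own, planned as a measure the clusters did not use, but per the study's methods normal tissues entered the factorization too. Identifiers were called at a Benjamini-Hochberg adjusted p under 0.05 with 1 or more log2 units between the means. The fit was tested on simulated data. Named identifiers were the 2 with the largest difference in each direction among called ones with a mean of at least 5 FPKM in the higher group, all 5 NMF5 tumors on the same side of the benign NMF1 median, and values unlike any other identifier's. Marker lists could not be applied without gene names. Exact permutation and Fisher tests used scipy 1.17.1. The tumor and normal tissue of 9 dogs pair by animal according to the labels (consensus correlation 0.249 over these 9). Each dog is 1 replicate. Alternatives covered the pseudocount, low values, scaling, histology, surgery year, mapping rate and single libraries.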

Additional observations from a re-analysis of the deposited data

Results flagged for a closer look

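The mapping rate of CMT-232, at 88.4%, lay apart from those of the other 4 NMF5 tumors, the nearest of which was at 91.1%, by a gap that exceeded the critical value of Dixon's test for 5 samples. A test of this kind marks about 1 in 20 groups by chance, and 1 of 20 checks did so. Its part in the results was not tested beyond the fit with mapping rate as a covariate, which called 61 identifiers higher and 31 lower in NMF5 than in benign NMF1.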

How the results depend on the processing

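The 99 identifiers called between NMF5 and benign NMF1 became 160 with a pseudocount of 0.1, 52 with all clustered tumors in the fit and 0 with simple adenomas only, the last with fewer tumors. Leaving out 1 NMF5 tumor gave 43 to 208 (lowest without CMT-476, highest without CMT-456) and leaving out 1 benign NMF1 tumor 85 to 152 (highest without CMT-017). Without both tumors of the shared operation date, chosen after seeing the data, 23 were called. Array weights gave 132, of which 82 were among the 99 of the main fit. The 26 NMF1 tumors benign by the labels gave 99, of which 83 were among them. For NMF5 against normal tissue the 2 calls became 5 without a filter on low values, 0 at a mean of at least 5 FPKM, 1 after quantile normalization, 3 to 5 without 1 NMF5 tumor and 74 without the 4 normal tissues that list ENSCAFG00000019755 at 0. For benign NMF1 against normal tissue the 978 became 1680 with a pseudocount of 0.1. With the dog as a replicate block, which pairs tumor and normal tissue, these counts were 3 and 975. The comparison between tumors holds 1 library per dog and needs no block. For own normal tissues the 12 became 3 with a pseudocount of 0.1, 0 at a mean of at least 5 FPKM, 19 after quantile normalization and 44 to 48 without 1 NMF5 dog, where the lone tissue is assumed to vary like the others. The cause of these changes was not tested unless given. ENSCAFG00000002889 and ENSCAFG00000019755 lost their calls in 2 of 39 alternatives each, ENSCAFG00000015860 in 3 and ENSCAFG00000015233 in 20, and none reversed. FPKM values carry no read numbers, so the precision of weak transcripts is unknown, and 5 tumors limit every comparison with NMF5.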
